A study of Macaca mulatta with 4 samples.

Results

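Border macrophages are resident macrophages of the meninges, the perivascular spaces and the choroid plexus, and they differ from microglia, the macrophages of the brain parenchyma. They take up proteins and cell debris through scavenger and endocytic receptors such as the mannose receptor MRC1, the haemoglobin scavenger CD163 and the hyaluronan receptor LYVE1, and many also express F13A1, the A subunit of coagulation factor XIII. Both populations depend on signals through CSF1R, the receptor of the growth factors CSF1 and IL34, while P2RY12, P2RY13, CX3CR1 and SALL1 are known as microglial genes.

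In the single-nucleus data of the fetal rhesus cerebellum, 91 of 32587 barcodes with at least 500 genes (0.279%) carried this LYVE1 or F13A1 signature. A barcode was taken when it had at least 1 unique molecular identifier (UMI, 1 counted RNA molecule) of LYVE1 or F13A1, at least 1 UMI of CSF1R, the leukocyte phosphatase PTPRC, MRC1 or CD163, and none of the collagen gene COL1A2. Microglia, the comparison population, had P2RY13 or CX3CR1 and neither LYVE1 nor F13A1, and they numbered 282. The LYVE1/F13A1 nuclei numbered 27 in the control female, 28 in the control male, 29 in the LPS female and 7 in the LPS male. Because measured genes chose these nuclei, their levels against microglia are a description without a test.

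The cerebellum came from 4 rhesus macaque fetuses, 1 library per fetus. Both controls, a female and a male of 130 days of gestation, had received no intervention and thus no saline injection. Both exposed fetuses, a female of 131 days and a male of 133 days, were delivered 5 days after 1 mg of lipopolysaccharide (LPS, a bacterial wall component) was given into the amniotic fluid, a model of chorioamnionitis. Sex was balanced between the groups, and flash-frozen hemispheres with a portion of the vermis were used without a sort for any cell type, so how much meninges or choroid plexus each piece held is not known here.

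The 4 libraries held 34282015 to 61665690 UMIs. The LPS male library stood apart, with 38.7% of its UMIs in barcodes of at least 500 genes against 58.7 to 74.1% in the others, and with 17389 barcodes of at least 400 but under 500 genes against 167 to 447. Of all barcodes with at least 500 genes, 223 shared their sequence with a barcode of another library, and 1 of the LYVE1/F13A1 nuclei, in the control male, was among them. Scrublet called 6 of the 91 nuclei doublets (6.59%), 4 of them in the control male, against 5.33 to 7.39% of all barcodes across the libraries. The male libraries were called with a threshold taken from the female ones. None of the 91 nuclei had over 5% mitochondrial UMIs.

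Most of the nuclei carried the marker genes of macrophages that the rule did not ask for. A list of 21 measured genes shared by myeloid cells was detected with at least 3 genes in 87 of the 91 nuclei, with a median of 11 genes. An 18-gene border macrophage list, which includes the endocytic adaptor DAB2 and the scavenger receptors STAB1, MSR1, CD36 and COLEC12 but none of the genes of the rule, had at least 10 UMIs in 67 nuclei. The other 24 nuclei had 0 to 9 UMIs of it, so the label holds for most but not all of the nuclei. Among these 24, 17 owed their place to a single LYVE1 or F13A1 UMI, 9 had a P2RY13 or CX3CR1 UMI, and 8 had at least 10 UMIs of granule cell genes. The counts were 4 of 27 in the control female, 11 of 28 in the control male, 6 of 29 in the LPS female and 3 of 7 in the LPS male. A cut in UMIs depends on depth, and the median UMIs per nucleus were 4574, 2452, 4254 and 2113 in the same order. Of the 117 microglia with at least 3 shared myeloid genes, 15 also had at least 10 border list UMIs. A large part of the border list level came from 1 gene. DAB2 held 591 of the 1091 border list UMIs in the control female and 280 of 582 in the control male. In the LPS female it held 602 of 1245, and in the LPS male 40 of 110. DAB2 alone had at least 10 UMIs in 57 of the 91 nuclei. The paper lists DAB2 among its cluster-specific microglial markers.

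The level of the border list went along with the number of LYVE1 and F13A1 UMIs. In the 21 nuclei with 1 such UMI, the median border list level was 1247 CPM (counts per 1000000 UMIs of the nucleus). The median was 7311 CPM in the 21 nuclei with 2 to 4 UMIs, 11052 CPM in the 14 nuclei with 5 to 9 and 11985 CPM in the 35 nuclei with 10 or more. All 35 nuclei of the last class had at least 10 border list UMIs, while 4 of the 21 nuclei with a single UMI did. The 8 microglial genes outside the rule showed no such order over the pooled nuclei, with medians of 785, 780.2, 540 and 715 CPM in the same classes. The libraries differed, with 1398 CPM at 1 UMI and 716 CPM at 10 or more in the control female. In the LPS female these medians were 2571 and 715 CPM, and in the control male 720 and 879 CPM. A P2RY13 or CX3CR1 UMI was found in 9 of the 21 nuclei with 1 UMI and in 4 of the 35 with 10 or more. Since all genes were read from the same barcodes, this is a description of these nuclei only.

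**Figure D1:**
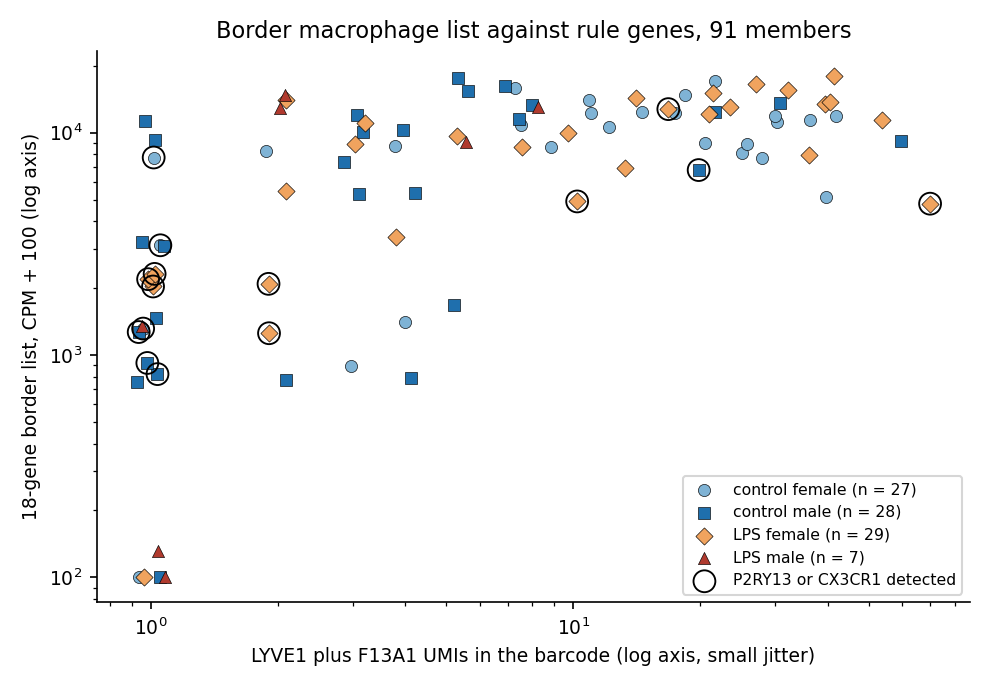
Each point is 1 of the 91 LYVE1/F13A1 nuclei, with its LYVE1 plus F13A1 UMIs on the horizontal axis and its summed border list level (CPM plus 100) on the vertical axis, both logarithmic, and colours and shapes mark the library. Open rings mark the 15 nuclei with a P2RY13 or CX3CR1 UMI, of which 9 had 1 LYVE1 or F13A1 UMI.

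LYVE1 and F13A1 were found together in 40 nuclei, F13A1 alone in 40 and LYVE1 alone in 11. Nuclei with both genes had a median of 53 border list UMIs, and all 40 of them had at least 10. The nuclei with F13A1 alone had a median of 20.5 UMIs, with 25 of 40 at 10 or more, and those with LYVE1 alone had a median of 3, with 2 of 11 at 10 or more. DAB2 was detected in 39, 34 and 4 nuclei of these 3 classes, respectively. Nuclei with both genes also had more UMIs in all, with a median of 4410.5 against 3334.5 and 3103. The part of depth in these differences was not tested.

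At the edge of the rule, 381 barcodes with at least 500 genes had a LYVE1 or F13A1 UMI, and 290 of them had no UMI of the 4 myeloid genes and were left out. COL1A2 removed no barcode. Among barcodes with at least 400 but under 500 genes, 1 of the control male otherwise met the rule, and barcodes under 400 genes were not checked. Conversely, 163 barcodes with at least 3 shared myeloid genes and a UMI of the 4 myeloid genes had neither LYVE1 nor F13A1, and 20 of these had at least 10 border list UMIs. As a background for single UMIs, granule nuclei without myeloid genes had a LYVE1 UMI in 0.417 to 0.952% and an F13A1 UMI in 0.170 to 0.494% of barcodes across the libraries, at median depths of 1903 to 4537 UMIs against 2113 to 4574 in the LYVE1/F13A1 nuclei.

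F13A1 summed to 2947 CPM in the control female, 1783 in the control male, 2903 in the LPS female and 375 in the LPS male. LYVE1 summed to 488, 284, 652 and 62.5 CPM in the same order. For both genes the female libraries lay above the male ones, as did the median UMIs per nucleus (4574 and 4254 against 2452 and 2113), and the ranges of the control and LPS libraries overlapped. The 7 LPS male nuclei held 18 UMIs of F13A1 and 3 of LYVE1. A single LPS male nucleus with 32232 UMIs made up 67.2% of the UMIs of all 7, and it had 289 UMIs of the 9 granule lineage genes, 1 border list UMI and 3 shared myeloid genes. Without it, F13A1 came to 1142 CPM and LYVE1 to 127 CPM in the LPS male.

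The first comparison asked whether the abundance of the LYVE1/F13A1 nuclei differed after LPS. They made up 0.292% of barcodes in the control female (exact 95% interval 0.192 to 0.424%), 0.325% in the control male (0.216 to 0.469%), 0.420% in the LPS female (0.281 to 0.603%) and 0.0897% in the LPS male (0.0361 to 0.185%). The 2 LPS libraries gave the highest and the lowest share, on either side of both controls. The group means were 0.308% in controls and 0.255% after LPS, and the difference did not exceed the spread between fetuses (two-sided exact permutation test, p = 1.0, n = 2 against 2, smallest possible p = 0.33). The intervals cover counting error only. Without the LPS male, the share of the LPS female was 0.112 percentage points above the control mean.

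Restricting the nuclei to those with at least 10 border list UMIs kept this order in the LPS group, with shares of 0.248, 0.197, 0.33 and 0.0512% in the control female, control male, LPS female and LPS male, respectively. After thinning to 1000 UMIs in the 8867, 7841, 6740 and 6017 barcodes that had as many, the rule kept 18, 21, 15 and 4 nuclei, or 0.203, 0.268, 0.223 and 0.0665%. The LPS female then lay between the controls, and the LPS male was still lowest (exact permutation test, p = 0.667, n = 2 against 2).

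Per microglial barcode there were 0.225 LYVE1/F13A1 nuclei in the control female, 1.04 in the control male, 0.446 in the LPS female and 0.10 in the LPS male. The controls spanned most of the range, and the LPS female lay between them. The means of 0.631 and 0.273 did not differ beyond the spread (two-sided exact permutation test, p = 0.667, n = 2 against 2). The denominator has limits, because 133 of the 282 microglial barcodes (47.2%) had none of the 21 shared myeloid genes. With at least 3 of these genes asked of both populations, 117 microglia remained, and the ratios were 0.542, 2.08, 1.00 and 0.214 in the same order.

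**Figure D2:**
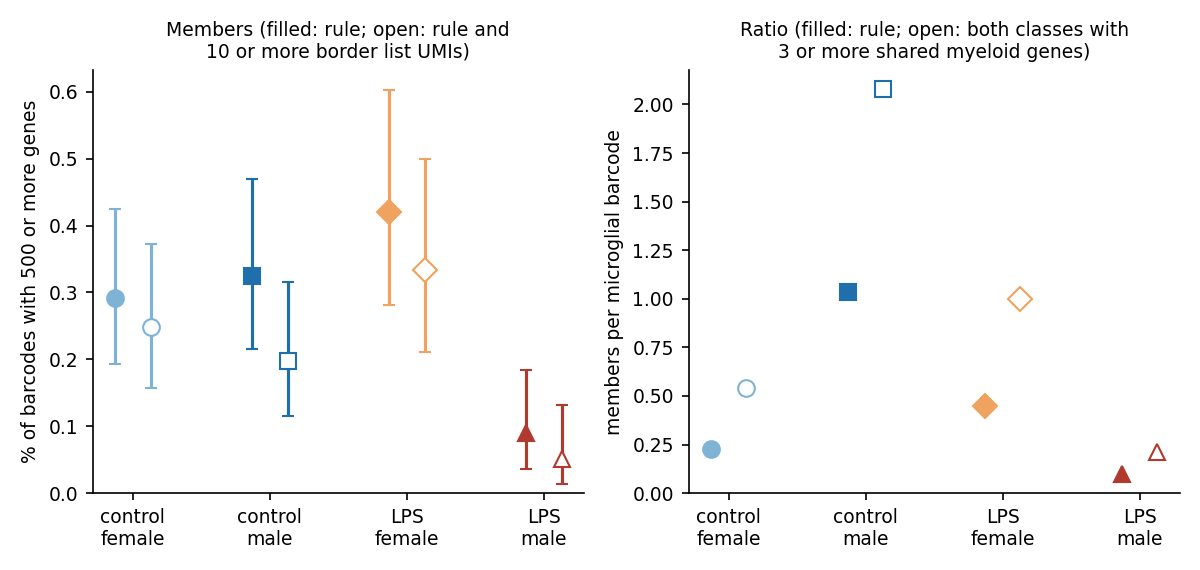
The left panel shows the share of LYVE1/F13A1 nuclei among barcodes with at least 500 genes in each library with exact 95% intervals, by the rule (filled) and with at least 10 border list UMIs (open). The right panel shows their number per microglial barcode by the rule (filled) and with at least 3 shared myeloid genes in both populations (open), and in both panels the LPS male is lowest.

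The LYVE1/F13A1 nuclei were then set beside the 117 microglia with at least 3 shared myeloid genes (called supported microglia). Scavenger and endocytic receptors and genes of iron and haem handling were higher in the LYVE1/F13A1 nuclei. The scavenger list includes LYVE1, MRC1 and CD163 and the iron list CD163, all of them genes that chose these nuclei. Pan-myeloid regulators, some of them on the list that chose the supported microglia, were at similar levels in the female libraries. The summed microglia and chemokine receptor lists were lower in these libraries. Both lists include CX3CR1, a gene that chose the microglia. The 18-gene border list summed to 8881, 5897, 8729 and 2292 CPM in the nuclei of the control female, control male, LPS female and LPS male, and to 1034, 412, 1695 and 871 CPM in supported microglia. In the 67 nuclei with at least 10 border list UMIs, which were chosen on these genes, it was 10181, 9692, 9872 and 11838 CPM. Of the border list, 15 genes had at least 10 UMIs in both populations together. In the control female, control male and LPS female alike, 14 of them were higher in the LYVE1/F13A1 nuclei. The remaining 1 was lower in all 4 libraries. Without barcodes over 20000 UMIs in either population, 12 were higher and 1 was lower. The 10-gene microglia list summed to 781, 1034, 1066 and 41.7 CPM in the LYVE1/F13A1 nuclei and to 3023, 449, 2822 and 1325 CPM in supported microglia. By genes, 1 of 9 microglia list genes, P2RY13, which also chose the microglia, was lower in the control female, control male and LPS female alike, and none was higher. The control male went against the other libraries in the sum, and 3 of its 13 supported microglia had over 20000 UMIs. Without these 3, its microglia had 1734.5 CPM of the microglia list and 2385 CPM of the granule list, against 449 and 6920.0 CPM with them. Without barcodes over 20000 UMIs in either population, 7 of the 9 microglia list genes and 3 of the 4 chemokine receptors were lower in the LYVE1/F13A1 nuclei and none was higher.

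Counts of genes below refer to genes with at least 10 UMIs in both populations together and to a sign shared by the control female, control male and LPS female, since 1 nucleus dominates the LPS male. By this count 1346 of 9845 genes (13.7%) were higher in the LYVE1/F13A1 nuclei and 1667 (16.9%) were lower. Without barcodes over 20000 UMIs the numbers were 1342 and 1508. The nuclei were chosen on genes of these lists, so the list counts describe the choice and carry no test.

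Of the scavenger and endocytic receptors, 10 of 12 genes were higher and none was lower, with LYVE1, MRC1 and CD163 of the rule among the 12. DAB2, an adaptor for the endocytosis of receptors of the LDL receptor family, had 4811, 2837, 4221 and 833 CPM in the LYVE1/F13A1 nuclei of the control female, control male, LPS female and LPS male, against 209, 73.1, 354 and 119 CPM in supported microglia. DAB2 was thus higher in every library, and it was detected in 77 of the 91 nuclei. MRC1 had 1319, 608, 918 and 208 CPM against 85.4, 47.0, 214 and 96.8 CPM. CD163 had 439.5, 456, 280.4 and 146 CPM against 28.5, 62.6, 41.1 and 7.44 CPM. Both genes are part of the rule, and both were higher in every library. CD163L1, a scavenger receptor of the CD163 family, was detected in 48 of the 91 nuclei and in 6 of the 117 supported microglia. For the fatty acid and lipoprotein receptor CD36 the numbers were 52 and 8, and for the scavenger receptor COLEC12 48 and 5. STAB1, a clearance receptor, separated the populations less, with 76 of 91 nuclei against 74 of 117. As a background, granule nuclei had a STAB1 UMI in 0.408 to 0.717% and a DAB2 UMI in 1.53 to 2.67% of barcodes.

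Iron and haem handling followed, with 7 of 10 genes higher and none lower, and CD163 of the rule is among the 10. SLC40A1 encodes ferroportin, the cellular iron exporter, and it had 562, 182, 1290.0 and 83.3 CPM in the LYVE1/F13A1 nuclei of the control female, control male, LPS female and LPS male. Supported microglia had 19.0, 0, 24.7 and 7.44 CPM of SLC40A1, where 0 UMIs in the control male allow up to 15.7 CPM, and up to 72.3 CPM without its 3 barcodes over 20000 UMIs. Within the LYVE1/F13A1 population SLC40A1 was uneven, with UMIs in 39 of 91 nuclei and up to 40 UMIs in 1 nucleus of the LPS female. SELENOP, a secreted selenium transport protein of the border list, was found in 51 of 91 nuclei against 4 of 117.

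Genes that serve both populations were closer. CSF1R is a gene of the rule, and RUNX1 is on the shared myeloid list that chose the supported microglia. Their levels thus follow in part from these choices. CSF1R had 212, 233, 168 and 83.3 CPM in the LYVE1/F13A1 nuclei of the control female, control male, LPS female and LPS male, and 242, 52.2, 165 and 335 CPM in supported microglia. Among the 9 genes of the CSF1 axis and myeloid transcription factors, 3 were higher and none was lower. RUNX1, a transcription factor of blood cell development, had 692, 973, 869 and 104 CPM against 659.6, 334, 658 and 305 CPM. Without the 3 barcodes over 20000 UMIs, control male microglia had 1445 CPM of RUNX1 and 217 CPM of CSF1R, so that RUNX1 was lower and CSF1R still higher in the LYVE1/F13A1 nuclei of this library. Of the 12 genes for uptake of apoptotic cells, 3 were higher and 2 were lower. ELMO1, which acts with DOCK proteins in engulfment, was detected in 88 of 91 nuclei and in 114 of 117 supported microglia. MERTK, a receptor for apoptotic cells, had 847, 679, 785 and 83.3 CPM against 1979, 188, 1530.1 and 715 CPM, lower in all but the control male. Without the 3 barcodes over 20000 UMIs, supported microglia of the control male had 771 CPM of MERTK, and MERTK was then lower in all 4 libraries. The counts also moved, to 1 higher and 2 lower of 9 genes of the CSF1 axis and to 2 higher and 3 lower of 12 genes of apoptotic cell uptake.

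Complement genes were split. Of 10 genes, 5 were higher and 1, CFD (complement factor D), was lower, from 8 UMIs in all nuclei. ITGAM, a subunit of complement receptor 3, had 497, 345, 477 and 167 CPM in the LYVE1/F13A1 nuclei against 171, 41.7, 313 and 89.3 CPM, higher in each library. The C1q chain gene C1QC, which is on the shared myeloid list that chose the supported microglia, was detected in 32 of 91 nuclei and in 22 of 117 supported microglia. In contrast, C3, the central complement component, was detected in 10 of 91 nuclei and in 76 of 117 supported microglia. In the control male C3 had 81.1 CPM in the LYVE1/F13A1 nuclei and 57.4 CPM in supported microglia, but 241 CPM in the latter without the 3 barcodes over 20000 UMIs, so that C3 was then lower in every library. The counts moved as well, to 4 higher and 1 lower of 10 complement genes without barcodes over 20000 UMIs. The 1 lower gene was then C3 and no longer CFD.

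Microglial genes were not absent from the LYVE1/F13A1 nuclei. P2RY12, a purinergic receptor of microglia, had 317, 132, 449 and 20.8 CPM in them and 902, 67.8, 856 and 283 CPM in supported microglia. Without the 3 barcodes over 20000 UMIs, control male microglia had 193 CPM of P2RY12, and it was then lower in the LYVE1/F13A1 nuclei of every library. P2RY12 was detected in 44 of 91 nuclei, against 2.28 to 3.99% of granule nuclei, so these UMIs were above the background of single UMIs in granule nuclei. CX3CR1, the fractalkine receptor that helped choose the microglia, was detected in 12 of 91 nuclei, 7 of them in the LPS female. CCR1, a chemokine receptor that was lower in every library, had 2 UMIs in the 91 nuclei. The microglial transcription factor SALL1 was detected in 8 of 91 nuclei and in 44 of 117 supported microglia.

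**Figure D3:**
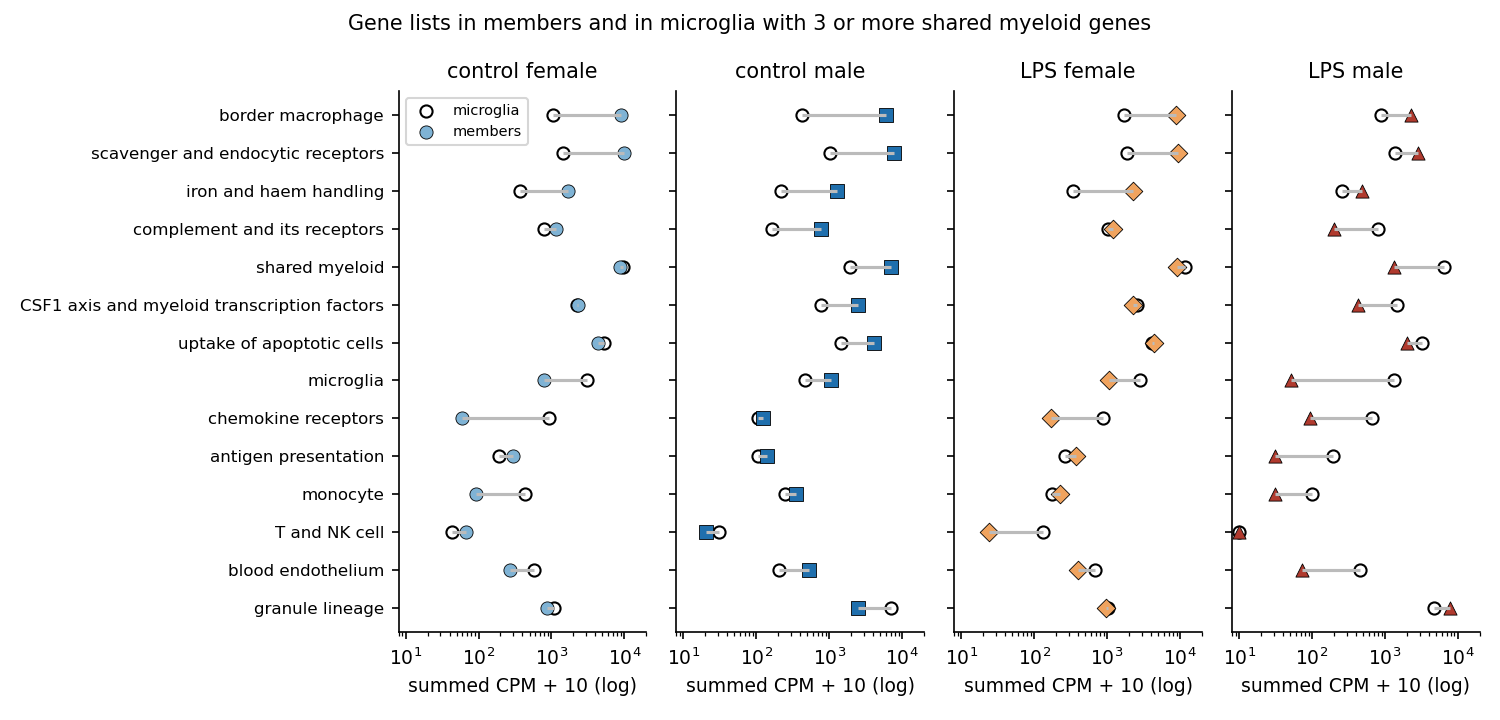
Each panel shows 1 library, with the summed CPM plus 10 of 14 gene lists on a logarithmic axis in the LYVE1/F13A1 nuclei (coloured) and in supported microglia (open circles). The border macrophage, scavenger and iron lists lie to the right in the LYVE1/F13A1 nuclei in all 4 libraries, and the microglia list lies to the left in all but the control male. The scavenger, iron and microglia lists include genes that chose the nuclei or the microglia.

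Genes were also ranked over all measured genes by the smallest of their 4 library ratios between LYVE1/F13A1 nuclei and all 282 microglia. The first 15 in favour of the LYVE1/F13A1 nuclei were F13A1, DAB2, CD163L1, NRP1, PLEKHG5, RBPJ, STAB1, SNX24, MRC1, HPGDS, RGL1, GRK3, SNX2, PTBP3 and IQGAP2. They were among 188 of 837 genes (22.5%) with at least 10 UMIs per library in the LYVE1/F13A1 nuclei that were higher there in all 4 libraries, and F13A1 and MRC1 are genes of the rule. RBPJ, the DNA-binding factor of Notch signalling, had 6699, 4266, 4045 and 1021 CPM in the LYVE1/F13A1 nuclei and 456, 292, 239 and 216 CPM in supported microglia. HPGDS, the haematopoietic prostaglandin D synthase, had 1807, 973, 1374 and 354 CPM against 280.0, 10.4, 354 and 208 CPM. NRP1, a receptor for semaphorins and VEGF, had 3142, 1692, 2349 and 458 CPM against 332, 282, 551 and 52.1 CPM. RBPJ, HPGDS and NRP1 were thus higher in each library. Without the LPS male, the ranking also named the gene of carboxypeptidase M (CPM), LYVE1, SLC40A1, PSTPIP2, SELENOP, the RANKL receptor gene TNFRSF11A, COLEC12, MS4A4A, PRKCQ and CD36, from 1021 of 2078 genes (49.1%) higher in the other 3 libraries.

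In the other direction, 619 of 4068 genes (15.2%) with at least 10 UMIs per library in microglia were higher there in all 4 libraries. Since the filter was set on the population in which a gene was sought as higher, these shares carry no weight of their own. The first 15 by the same ranking were HTR1E, EPB41L4A, HECW2, RORA, MEIS2, GRIK1, VSTM2L, SMOC1, SOX5, SEMA3A, BCR, RRAS2, MAP6, FILIP1L and PRKCZ, none of them on the microglia list. The granule list summed to 3694, 7032, 3011 and 6634 CPM in the 282 microglia against 1087, 6920.0, 1028 and 4749 CPM in supported microglia. Against supported microglia in all 4 libraries, the ranking named SORL1, the serine protease HTRA1, TMCC3, SYNDIG1, ARHGEF12, ARHGAP24 and CECR2 among its 15 genes. SORL1, a sorting receptor, was lower in the LYVE1/F13A1 nuclei by log2 ratios of -2.72, -1.16, -2.23 and -3.41 in the 4 libraries.

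**Figure D4:**
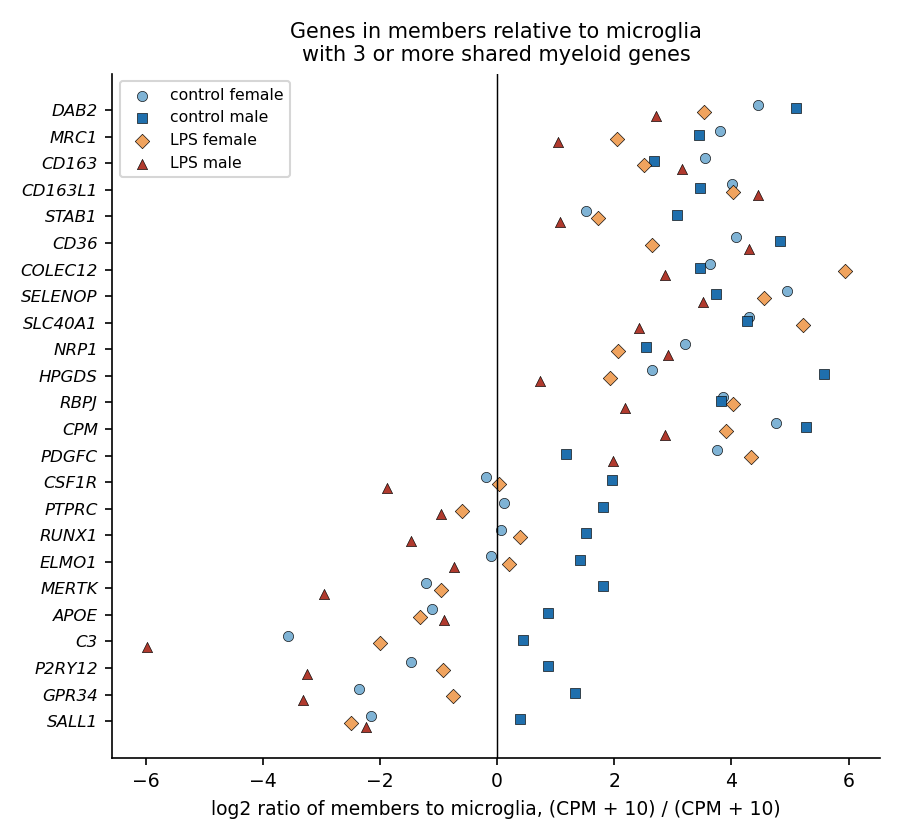
The log2 ratio of CPM plus 10 in the LYVE1/F13A1 nuclei to CPM plus 10 in supported microglia is shown for 24 genes, with 1 point per library. The scavenger genes, SLC40A1 and RBPJ lie to the right of 0 in all 4 libraries, while genes at the bottom (C3, P2RY12, GPR34, SALL1) lie to the left except in the control male.

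Markers of other blood cells were mostly at few UMIs, while markers of neural cells and blood endothelium were present. The 3 measured mast cell genes had 0 UMIs among the 412163 UMIs of the LYVE1/F13A1 nuclei, which allows up to 7.28 CPM. The megakaryocyte and platelet list, whose cells also carry F13A1, had 1 UMI over all nuclei, with 6 of its 7 genes at 0. Monocyte genes summed to 20.8 to 334 CPM, and S100A8, S100A9 and CCR2 were at 0. Neutrophil, T and NK cell and B cell genes had 5, 10 and 4 UMIs in all. Lymphatic endothelium, which also uses LYVE1, had 9 UMIs, with FLT4, CCL21 and MMRN1 at 0. The class II genes CD74 and MAMU-DRA, known from some border macrophages, were detected in 4 and 3 of the 91 nuclei. Blood endothelium genes summed to 260.5, 517, 393 and 62.5 CPM in the control female, control male, LPS female and LPS male, against 136, 189, 172 and 93.3 CPM over all barcodes, with CLDN5, CDH5 and KDR at 0. Oligodendrocyte lineage genes summed to 1050.0, 953, 715 and 354 CPM against 543, 449, 665 and 835 CPM over all barcodes, with MOG, MOBP, OLIG1 and CSPG4 at 0. The lists of both cell types were thus above all barcodes in the first 3 libraries and below in the LPS male, where blood endothelium was above them (190.3 CPM) without the largest nucleus. Supported microglia had 565, 193, 683 and 447 CPM of the blood endothelium list, more than the LYVE1/F13A1 nuclei in all but the control male. Of the oligodendrocyte lineage list they had 897, 553, 1160 and 923 CPM, less than these nuclei in the controls and more in the LPS libraries. Astroglia genes summed to 167 to 666 CPM, and choroid plexus genes had 34 of their 35 UMIs in the LPS female. Granule lineage genes reached 847, 2483, 961 and 7689 CPM in the control female, control male, LPS female and LPS male, and 5076 CPM in the LPS male without its largest nucleus. Their part in the comparisons was not tested.

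The second comparison asked whether genes of the LYVE1/F13A1 nuclei differed between LPS-exposed fetuses and controls. UMIs were summed per library, and the call asked for a log2 fold change beyond 0.25 in either direction with an adjusted p below 0.1. Of 3068 genes tested none was called (0.0%) with edgeR, where 38 genes had an unadjusted p under 0.05, and none passed with DESeq2, where 43 did. In simulated sums of the same size, edgeR called 63.0% of genes with a true log2 change of 4 and 3.45% of those with one of 2, while DESeq2 called 76.7 and 18.4%, so most changes of the latter size would have been missed by either tool. These shares cover only changed genes that passed the count filter. The simulation used a common dispersion and the same expected proportions in every library, without a dominant nucleus. The shares may thus be too high for the real sums. Both LPS libraries lay above both controls for 264 genes (8.6%) and below both for 527 (17.2%), and the median log2 fold change of all genes was 0.03.

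DAB2, the border list gene with the most UMIs, had a log2 fold change of -0.53 ± 1.06 (SE, edgeR, adjusted p = 0.999). Its LPS female lay between the controls, and the LPS male was lowest. Without the largest nucleus DAB2 had 2538 CPM in the LPS male, and the log2 fold change was -0.20. LYVE1, F13A1, CSF1R, PTPRC, MRC1 and CD163 chose the nuclei, so their levels between groups are given without a test. For F13A1 the LPS female lay between the controls and for LYVE1 above both, while the LPS male was lowest for both genes. CSF1R, at 212 and 233 CPM in controls and 168 and 83.3 CPM after LPS, and CD163, at 439.5 and 456 CPM in controls and 280.4 and 146 CPM after LPS, were below both controls in both LPS libraries. Without the largest nucleus the LPS male had 254 CPM of CSF1R and 444 CPM of CD163, so the groups then overlapped.

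None of the 13 functional lists had a called gene. Counts and medians of the lists are given without the genes that chose the nuclei, first with and then without the largest LPS male nucleus. Over all genes the median log2 fold change was 0.03 and -0.05, 8.6 and 9.75% of genes lay above both controls in both LPS libraries, and 17.2 and 16.6% lay below. Of 9 scavenger and endocytic receptors, 2 lay below both controls and none above with this nucleus, against 2 below and 1 above without it, and the median turned from -0.45 to 0.14. For genes of the CSF1 axis the median was -0.67 over 5 genes and -0.33 over 6 genes. There 2 lay below and none above with the nucleus, against 1 below and 1 above without it. For 5 genes of iron and haem handling the median was -0.48 and -0.34, also with 2 below and none above, and then 1 below and 1 above. The medians were -0.60 and -0.30 for 6 genes of uptake of apoptotic cells, -0.71 and -0.41 for 6 growth factor and matrix genes, -0.25 and 0.18 for 5 complement genes, and 0.03 and 0.31 for 4 lipid handling genes, 1 of which lay above without the nucleus. For 4 genes of LPS sensing and inflammation they were 0.20 and 0.42, and for 2 glucocorticoid targets -0.04 and 0.18. Of the antigen presentation list only the costimulatory gene CD86 was tested, with 0.72 and 0.97. Interferon response genes, chemokine receptors and cell cycle genes did not reach the count filter. RBFOX3, a neuronal splicing factor of the granule list, had 130.2, 1003 and 133 CPM in the control female, control male and LPS female, but 3584 CPM in the LPS male, and 1776.5 CPM there without the largest nucleus. The part of granule genes in the medians was not tested.

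The genes of the inflammatory response were thinly covered. NFKB1, an NF-kB subunit, had 179, 132, 308 and 62.5 CPM in the control female, control male, LPS female and LPS male (log2 fold change 0.43 ± 0.72, edgeR adjusted p = 0.999). The inflammasome gene NLRP3 had 11, 10, 20 and 0 UMIs, and the LPS receptor gene TLR4 had 10, 7, 11 and 1. The chemokine gene CCL2 had 0, 1, 12 and 0 UMIs, and the 12 UMIs of the LPS female came from 3 nuclei. CCL3, another chemokine gene, had 11, 3, 15 and 1 UMIs. The LPS female, whose nuclei held the most UMIs in all, held the most UMIs of NLRP3, TLR4, CCL2 and CCL3, and the LPS male held the fewest or tied for it. TNF, PTGS2, IL1R1 and IL1RN had no UMI in any of the 91 nuclei, which allows up to 7.28 CPM.

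The 10 genes with the smallest unadjusted p among those above both controls were GALNTL6, CNTN4, SGK1, DPP10, LHFPL6, TMEM178B, DLG2, MDGA2, ADARB2 and COG6. Several of them, such as the adhesion gene CNTN4 and the synaptic scaffold DLG2, are known from neurons. SGK1, a kinase induced by glucocorticoids, had 24.4 and 30.4 CPM in the controls and 119 and 417 CPM in the LPS female and LPS male (log2 fold change 3.37 ± 0.91, edgeR adjusted p = 0.999). CNTN4 had 24.4 and 60.8 CPM in the controls and 189 and 563 CPM after LPS, with 3.29 ± 0.89 and the same adjusted p. Both genes were named for lying above both controls, and their UMIs sat in few nuclei. Of the 27 CNTN4 UMIs of the LPS female, 21 came from 1 nucleus, and of the 20 SGK1 UMIs of the LPS male, 16 did. ADARB2 had 106 UMIs in the LPS female, 100 of them in 1 nucleus.

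Below both controls, the named genes were TBC1D16, GRAMD4, GPNMB, PATL1, SLC43A2, SNX8, EEPD1, BCL2L1, ARHGAP25 and NMT1. Without the largest LPS male nucleus, SNX8 no longer lay below and DPP10 no longer above both controls, while the measured values of the other 18 of the 20 named genes stayed outside the range of the controls. For SLC43A2 and EEPD1 the LPS male value was then 0, which allows up to 190.3 CPM. That is more than their lower controls of 141.9 CPM (control male) and 146.5 CPM (control female), so both could not be placed. In the same LPS male sum PATL1 and BCL2L1 had 63.4 CPM, and GRAMD4, ARHGAP25, NMT1 and COG6 had 127 CPM. These values are below the 190.3 CPM that a count of 0 allows. They rest on very few UMIs, so the place of these genes is uncertain as well. GPNMB, a lysosome-related glycoprotein of macrophages, had 163 and 213 CPM in the controls and 56.1 CPM in the LPS female. It had 0 UMIs in the LPS male, which allows up to 62.5 CPM, or up to 190.3 CPM without the largest nucleus and thus more than the control female had, and its fitted log2 fold change was -2.23 ± 0.88 (edgeR, adjusted p = 0.999). These UMIs were spread over 6, 10 and 5 nuclei of the first 3 libraries. GRAMD4 had 260.5, 618, 133 and 83.3 CPM in the control female, control male, LPS female and LPS male, with UMIs in 15, 21, 13 and 3 nuclei (-1.84 ± 0.69, edgeR adjusted p = 0.999). TREM2, a lipid-sensing receptor of macrophages and microglia, lay below both controls as well, with 106 and 243 CPM in controls and 77.1 and 20.8 CPM after LPS, and did not pass.

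**Figure D5:**
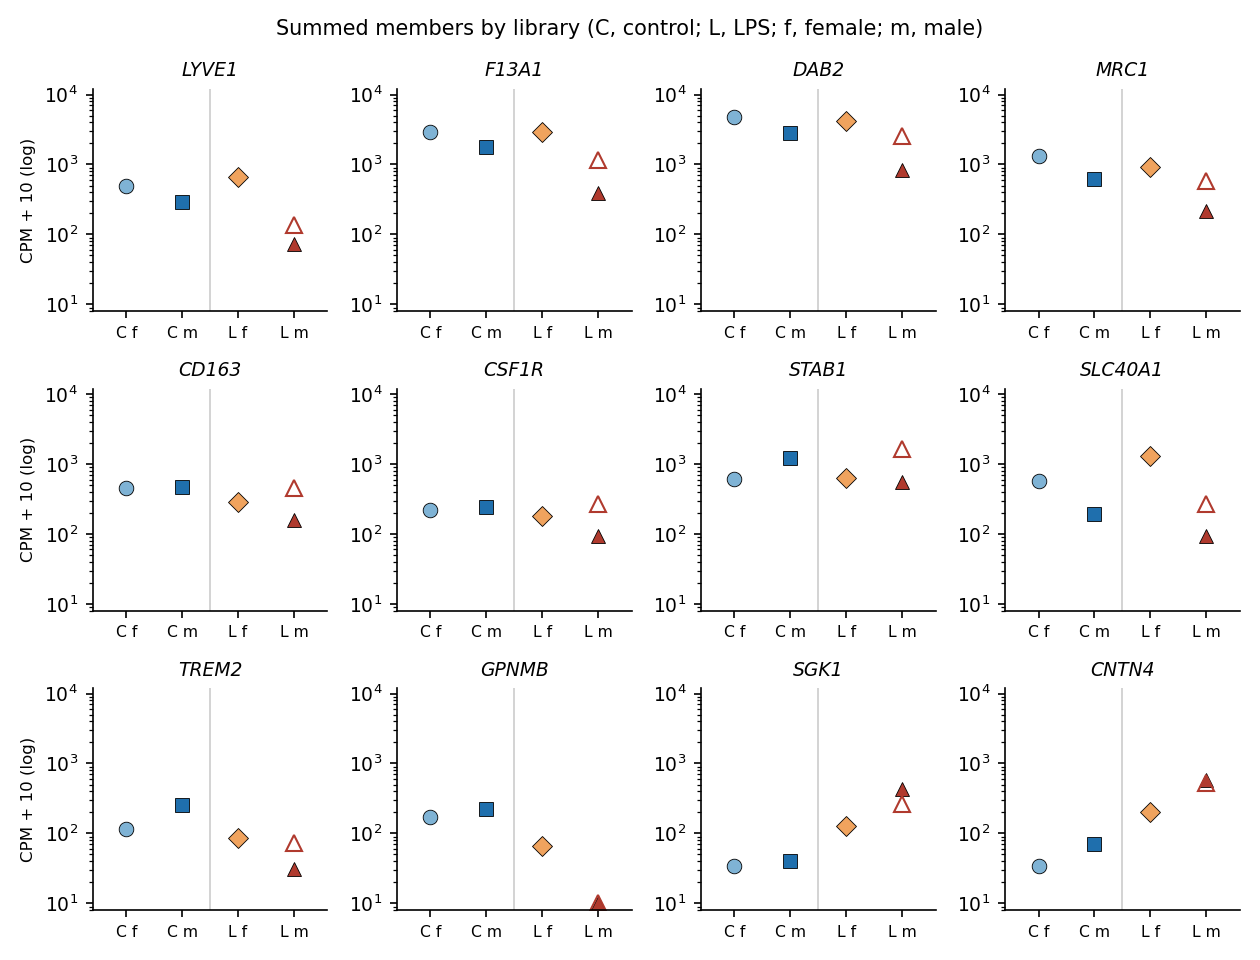
CPM plus 10 of 12 genes in the summed LYVE1/F13A1 nuclei is shown on logarithmic axes for each of the 4 libraries, with controls left and LPS right of the grey line. The open triangle is the LPS male without its nucleus of 32232 UMIs, which lifts F13A1 from 375 to 1142 CPM and CD163 from 146 to 444 CPM.

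The tests in microglia used all 282 barcodes of the rule, of which 133 had no shared myeloid gene. Their granule list summed to 3694, 7032, 3011 and 6634 CPM, against 5511, 6937, 5018 and 7319 CPM over all barcodes. No gene of 6058 passed with edgeR (0.0%, 89 at an unadjusted p under 0.05) or with DESeq2 (66). With sex as a block, 10 genes passed with edgeR, 7 higher and 3 lower. In supported microglia, no gene of 4255 passed with edgeR. Whether the effect of LPS differed between LYVE1/F13A1 nuclei and the same 282 microglia was tested as an interaction, with each library as a block. No gene of 5475 passed with edgeR (0.0%, 189 at an unadjusted p under 0.05) or with DESeq2 (70), while 11 passed with edgeR without the largest LPS male nucleus. The gene with the smallest p among those with a larger effect in the LYVE1/F13A1 nuclei was THSD7B (difference of log2 fold changes 7.79 ± 1.13, edgeR adjusted p = 0.421). THSD7B had 1, 0, 21 and 2 UMIs in these nuclei, 20 of the 21 in 1 nucleus of the LPS female.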

How the data were processed

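Single-nucleus RNA was measured in the cerebellum of 4 rhesus fetuses, 2 controls and 2 exposed to LPS. The deposited values are raw UMI counts per gene and barcode, which the authors made with Cell Ranger on Mmul_8.0.1 with introns included. The submitters' processing notes name version 4, while the paper's methods name another. The ambient RNA removal and nucleus filters of the paper are not in the deposited counts, so free RNA can add UMIs. Genes overlapping on a strand, or near-identical copies, were not separated here.

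The rule was applied to barcodes with at least 500 genes. The nuclei and gene lists were chosen with earlier results of these data known. Scrublet (scanpy 1.11.5) called doublets, which were kept. Its own threshold marked 0% of the control male and 0.0256% of the LPS male, so the median of the thresholds of the female libraries (0.189) was applied to both. UMIs were summed per library and tested with edgeR 4.0.16 (filterByExpr, TMM, quasi-likelihood test, Benjamini-Hochberg adjustment over all genes) in R 4.3.3, and DESeq2 1.42.0 was the alternative. The fetus was the replicate, so 2 against 2. Shares have exact (Clopper-Pearson) 95% intervals and exact permutation tests. A count of 0 was taken to allow 3 counts. Ratios used a pseudocount of 10 CPM. The summed nuclei held 122853, 98686, 142631 and 47993 UMIs in the control female, control male, LPS female and LPS male.

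Genes were named as those of the rule, the 15 per direction with the largest smallest ratio to microglia, the 10 per direction with the smallest p outside the range of controls, and up to 4 per list with the most UMIs. The comparison with supported microglia, the count without the LPS male, the values without barcodes over 20000 UMIs and a few further genes (CD163L1, COLEC12, SELENOP, SALL1, C3, TLR4, CCL2, CCL3, TREM2, RBFOX3) were added after the values were seen. The tests were tested on simulated data. Levels were compared within genes only, since no gene lengths of this build were used. Python 3.11.15 with scipy 1.17.1 and matplotlib 3.10.9 did the remaining steps.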

Additional observations from a re-analysis of the deposited data

How the results depend on the processing

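The LPS against control count in the LYVE1/F13A1 nuclei was 0 genes under every alternative tried except when a library was left out, where it ranged from 0 to 413. The 413 genes (261 higher, 152 lower) arose without the LPS female, with the LPS male as the lone exposed library, whose spread was assumed to be that of the controls, and 10 of them were list genes (range over the left-out libraries 0 to 10). In microglia the count was 44 without a filter on low counts, 10 with sex as a block and 0 to 34 when a library was left out. For the interaction it was 12 without the filter, 10 with at least 3 shared myeloid genes, 8 without doublets, 1 to 362 when a library was left out, 11 without the nucleus over 20000 UMIs and 18 with at least 10 border list UMIs. The last 2 settings, and the count of 579 genes below, were chosen after seeing the data. The cause of these differences was not tested.

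The difference in share (-0.0534 percentage points) ranged from -0.219 to 0.112 when a library was left out, and it turned positive without the LPS male. The difference in the ratio to microglia (-0.358) ranged from -0.764 to 0.0481, and it turned positive without the control male. Under all other alternatives both kept their sign. The number of genes higher than in microglia in every library was 188, 109 with at least 3 shared myeloid genes, 579 with these and without the LPS male, and 222 to 1021 when a library was left out. The 20 named genes kept the direction of their fold change in the 255 alternative fits that held them. They were chosen because both LPS libraries lay outside the range of the controls. The kept direction was therefore largely fixed by the choice and is no test. DPP10 had no fit without the largest LPS male nucleus, where its LPS male level was 0. List medians here include the genes that chose the nuclei. They changed sign in some settings for complement, LPS sensing, the CSF1 axis, apoptotic cell uptake, iron, lipid and glucocorticoid genes. The sign was kept for scavenger receptors (-1.31 to -0.03) and growth factors (-2.31 to -0.03). For scavenger receptors this held only with the genes that chose the nuclei. Without these genes the median turned from -0.45 to 0.14 when the largest LPS male nucleus was left out. With sex as a block, which pairs the females and the males, the LYVE1/F13A1 nuclei still gave 0 calls (162 genes at an unadjusted p under 0.05). No paired analysis by number was made, since the labels number no replicates.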

Other observations

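Of the 163 barcodes with at least 3 shared myeloid genes, a UMI of CSF1R, PTPRC, MRC1 or CD163 and neither LYVE1 nor F13A1, 20 had at least 10 UMIs of the border macrophage list. They numbered 5 in the control female, 6 in the control male, 8 in the LPS female and 1 in the LPS male, and 13 of them met the rule for microglia. Those 13 were counted as microglia in the comparisons, and the other 7 entered none.

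TIMD4, a receptor for phosphatidylserine on resident macrophages, was uneven across libraries. Its UMIs in the LYVE1/F13A1 nuclei were 3, 2, 21 and 0 in the control female, control male, LPS female and LPS male, in 1, 2, 10 and 0 nuclei, and it was below the count filter of the test. SPP1, osteopontin, had 111, 37, 55 and 14 UMIs, of which single nuclei held up to 48, 7, 30 and 13.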
